A study of Mus musculus with 4 samples.

Results

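The genes described here are those with no read in the libraries labelled Aire-KO and many in the libraries labelled WT, in mouse mTEChi, the medullary epithelial cells of the thymus with high MHC class II. A RefSeq ID was taken when it had 0 counts in both Aire-KO libraries and at least 100 counts in both WT libraries, and 1 ID was kept per gene. The rule gave 69 RefSeq IDs of 30794, and they belong to 66 genes of 24441. The counts themselves chose these genes, so their levels and the gap between WT and Aire-KO are given as a description with no test.

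Aire is a nuclear protein of mTEChi that raises the transcription of a great many genes which other organs use, among them genes of hormones, digestive enzymes, milk proteins and sense organs. Peptides of these products are shown to developing T cells, and T cells that bind them strongly are deleted or become regulatory. Loss of AIRE in people leads to autoimmunity against several organs.

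The samples were 4 libraries of mTEChi from B6 mice: 2 WT and 2 Aire-KO (genotype Aire-/-), with 1 library of each genotype in a first and in a replicate experiment. The mice were 4 weeks old, the sort took I-A/E-high cells without CD45 and Ly51, and each library came from a pool of 4 mice. The mutation is carried by every cell of the animal and not by mTEC alone. Since the mice of a library were pooled, the spread between libraries is that between pools and experiments.

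With 1 ID kept per gene, the libraries held 138873501 counts (WT) and 120686184 counts (Aire-KO) in the first experiment. The replicate held 81811930 counts (WT) and 175480599 counts (Aire-KO). Aire itself had 87229 and 36597 counts in WT and 200697 and 175884 in Aire-KO, so whole-gene counts went against the genotype labels and could not check them, as the counts do not show which part of the gene was deleted. Medullary epithelial and MHC class II genes were high in all 4 libraries, with a summed level of 29300 to 50000 CPM (counts per unit of library total). Of 12 thymocyte genes none passed the test below, and their summed level was 59.7 and 90.8 CPM in WT and 37.3 and 52.5 CPM in Aire-KO. Of 11 genes of dendritic cells, macrophages and B cells, Itgam alone was called higher in WT, and Col1a2 and Col3a1 of 10 genes of fibroblasts and endothelium lower. The median log2 fold change, WT over Aire-KO, was 1.3 for the thymocyte genes and 1.17 for those of dendritic cells, macrophages and B cells. It was -1.55 for the genes of fibroblasts and endothelium and -0.349 for those of medullary epithelium and MHC class II. Whether the libraries held different shares of these cells was not tested.

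Some silent genes belong to families whose copies resemble each other closely, and the α-defensins show what this means for a count. Alpha-defensins are antimicrobial peptides that Paneth cells release into the crypts of the small intestine. The first coding exon of the 4 silent α-defensin genes with a position in the mm9 genome is shown, read 5′ to 3′ on the strand of the gene from NCBIM37 (mm9), with capitals at the bases that differ from Defa20. Defa20 (chr8:22619773-22619944, plus strand) and Defa32 (chr8:22639547-22639718, plus strand) are followed by Defa22 (chr8:22301999-22302170, plus strand) and Defa38 (chr8:22235558-22235729, minus strand).
Defa20: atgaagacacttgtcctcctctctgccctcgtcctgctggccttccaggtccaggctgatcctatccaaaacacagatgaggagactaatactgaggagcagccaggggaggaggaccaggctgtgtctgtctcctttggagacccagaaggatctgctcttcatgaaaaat
Defa32: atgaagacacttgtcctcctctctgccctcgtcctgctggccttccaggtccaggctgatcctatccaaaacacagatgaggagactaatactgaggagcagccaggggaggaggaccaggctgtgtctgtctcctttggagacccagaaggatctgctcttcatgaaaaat
Defa22: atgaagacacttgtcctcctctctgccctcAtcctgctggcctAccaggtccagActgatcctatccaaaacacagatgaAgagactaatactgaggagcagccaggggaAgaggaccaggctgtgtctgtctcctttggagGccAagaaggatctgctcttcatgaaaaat
Defa38: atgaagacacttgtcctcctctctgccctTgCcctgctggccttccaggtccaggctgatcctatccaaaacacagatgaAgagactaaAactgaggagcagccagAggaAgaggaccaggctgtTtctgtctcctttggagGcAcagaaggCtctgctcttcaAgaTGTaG

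Over these 172 bases Defa20 and Defa32 did not differ, Defa22 differed from Defa20 at 7 bases (95.9% identical) and Defa38 at 15 (91.3%). A 50-base read from this exon of Defa20 therefore matches Defa32 as well. The longest stretch without a difference was 31 bases between Defa20 and Defa22 and 48 bases between Defa20 and Defa38, both shorter than a read. A read aligned with mismatches allowed could still fit several of these genes.

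The start regions of the silent genes had a feature that the rule did not use. A TATA box is a short A- and T-rich element just before the start of many tissue-restricted genes. The letters TATAAA were searched on the strand of the gene, wholly between 40 and 21 bases before the RefSeq start (GRCm38.p6). They were found in 15 of the 58 silent genes with an entry in the RefSeq promoter table (25.9%), in 346 of 12902 genes with at least 100 counts in both WT libraries (2.68%), and in 504 of all 17592 genes of the count table with an entry (2.86%). Among other genes called higher in WT by the test below and with at least 100 counts in both WT libraries, the share was 78 of 733 (10.6%). On the other strand of the same window the letters stood in 1 of the 58 silent genes (1.72%) and in 0.665% of all genes. The 60 bases before the start are shown for 8 of the 15, with the TATAAA in capitals. They let the spacing and the flanking bases be compared between the α-defensins with the motif and genes of other organs.
Defa20 (chr8:21509198-21509257, plus strand): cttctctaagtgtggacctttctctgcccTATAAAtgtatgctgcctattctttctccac
Defa32 (chr8:21528970-21529029, plus strand): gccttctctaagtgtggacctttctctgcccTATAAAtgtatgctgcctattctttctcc
Defa22 (chr8:21162217-21162276, plus strand): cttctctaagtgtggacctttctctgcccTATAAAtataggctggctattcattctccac
Reg2 (chr6:78405095-78405154, plus strand): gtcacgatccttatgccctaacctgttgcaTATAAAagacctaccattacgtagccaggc
Kap (chr6:133853668-133853727, minus strand): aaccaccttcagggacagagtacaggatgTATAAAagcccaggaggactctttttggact
Mup4 (chr4:59960668-59960727, minus strand): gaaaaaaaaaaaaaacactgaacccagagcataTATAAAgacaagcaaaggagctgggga
Otor (chr2:143078333-143078392, plus strand): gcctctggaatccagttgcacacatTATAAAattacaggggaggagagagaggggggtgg
Trpm8 (chr1:88306675-88306734, plus strand): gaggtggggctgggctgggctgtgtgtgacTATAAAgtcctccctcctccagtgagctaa

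The motif began between 35 bases (Otor) and 27 bases (Mup4) before the start in these 8 genes. The 250 bases before the start were 98% identical between Defa20 and Defa22. Defa20 and Defa32 were 100% identical over 248 bases once shifted by 2. The near-copies Defa20, Defa22 and Defa32 were each counted among the silent genes with the motif. Defa38 had no TATAAA in the window, and the bases before its start were 32.5% identical to those of Defa20 once shifted by 1. Beyond the 8 genes shown, the other 7 silent genes with the motif were Calhm4, Ctsll3, Gm4847, H2-M9, Pramel27, S100a7l2 and Serpina3a. CpG pairs, which are frequent at the starts of genes that all cells use, were rare at these starts. The median ratio of observed to expected CpG over the 300 bases of the table was 0.146 for the silent genes, 0.245 for the other genes called higher with at least 100 WT counts and 0.733 for all genes with at least 100 WT counts. A ratio under 0.4 was found for 54 of 58 silent genes (93.1%), against 69.7% and 22.3% in those groups.

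The silent genes were weakly transcribed in WT. Their WT counts ran from 107 to 1563 in the first experiment and from 101 to 1191 in the replicate. Scaled to the library, the lowest, median and highest levels were 0.77, 2.45 and 11.3 CPM in the first experiment and 1.23, 2.71 and 14.6 CPM in the replicate. Scaled also by transcript length, the median of the 63 silent genes with a length in the files was 1.78 and 2.77 RPKM (CPM per kilobase), against 8.65 and 7.70 RPKM over 16170 genes with at least 100 WT counts and a length. A count of 0 allows up to 3 counts, which is 0.0249 CPM in the first Aire-KO library and 0.0171 CPM in the replicate. Set against that limit, the silent genes were at least 30-fold to at least 452-fold higher in WT in the first experiment, with a median bound of 98-fold. In the replicate the bounds ran from 72-fold to 851-fold, with a median of 158-fold. The smallest bounds follow from the minimum of 100 WT counts in the rule. All the bounds cover counting error only, and reads without molecular identifiers are not independent molecules.

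**Figure D1:**
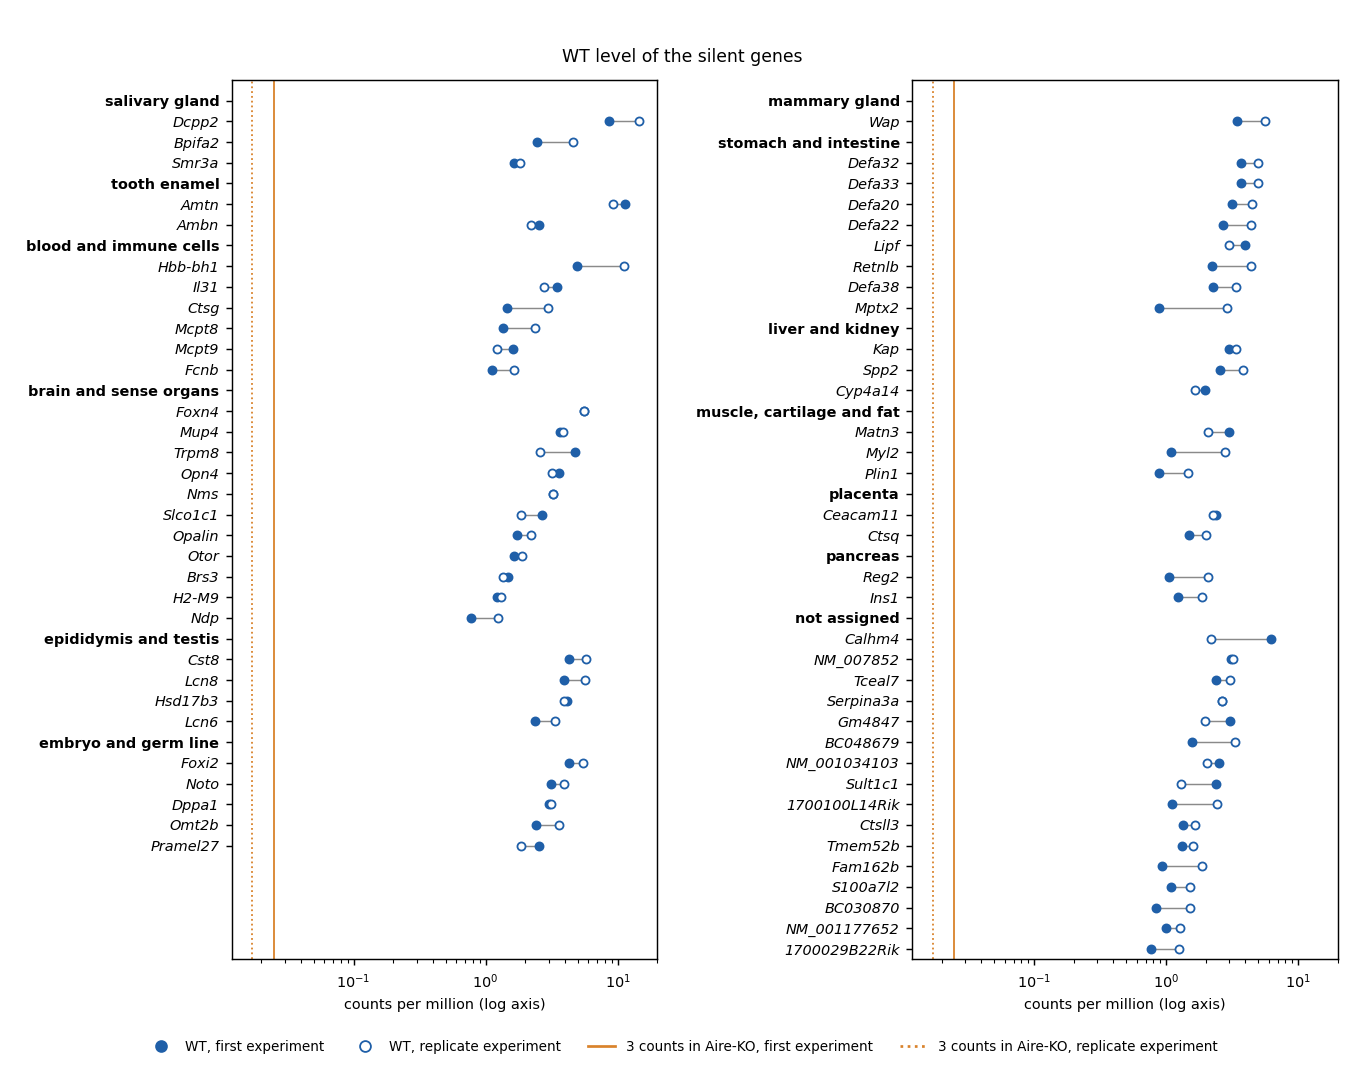
WT level of each of the 66 silent genes in CPM on a log axis, in the first experiment (filled points) and in the replicate experiment (open points), grouped by the tissue each gene is known from. The vertical lines mark what 3 counts are worth in each Aire-KO library, 0.0249 and 0.0171 CPM, and every WT point lies to the right of both lines.

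The WT libraries ordered the genes alike but not closely. Across the 66 genes the log2 CPM of the WT libraries had a Pearson correlation of 0.75 and a Spearman correlation of 0.729, which are descriptions since all points share the same libraries. The level was higher in the replicate for 47 genes and in the first experiment for 19, and 58 of the 66 lay within 2-fold of each other. The median ratio of the first to the replicate WT level was 0.777 for the silent genes, 0.811 for 990 other genes called higher and 1.04 for all genes with at least 100 WT counts. The genes furthest toward the first experiment were Calhm4, a calcium homeostasis modulator channel (864 and 180 counts, ratio 2.83), Trpm8, the cold-sensing channel of sensory neurons (658 and 210 counts, ratio 1.85), and Sult1c1, a sulfotransferase (331 and 107 counts, ratio 1.82). Gm4847 (ratio 1.55) and Slco1c1 (ratio 1.44) came next. Furthest toward the replicate were Mptx2, an intestinal pentraxin (123 and 236 counts, ratio 0.307), Myl2, the regulatory myosin light chain of the heart ventricle and slow muscle (152 and 228 counts, ratio 0.393), and Hbb-bh1, an embryonic globin (681 and 908 counts, ratio 0.442). 1700100L14Rik (ratio 0.458) and BC048679 (ratio 0.473) followed.

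Genes with 0 Aire-KO counts are the end of a continuous range. Of 16920 genes with at least 100 counts in both WT libraries, 65 had 0 in both Aire-KO libraries when each gene was represented by its ID of highest mean count. The 66th silent gene, BC048679, is represented there by an ID with 1 Aire-KO count. Of the rest, 93 had at most 3 in the larger, 199 had 4 to 10, 289 had 11 to 30, 645 had 31 to 100 and 15629 had more. The edgeR quasi-likelihood test over all 4 libraries, with a Benjamini-Hochberg adjusted p under 0.05, called 6.29% of 20557 genes tested higher in WT and 0.268% lower. Over all RefSeq IDs these shares were 5.58% and 0.258%. All 66 silent genes were among the genes called higher, which the rule brings about. Once the experiment entered as a replicate block, edgeR called 3242 genes higher and 1899 lower. Of the 1056 genes called higher with at least 100 WT counts, 65 had 0 in Aire-KO (6.16%) and 305 had over 100 counts in 1 of the Aire-KO libraries (28.9%).

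**Figure D2:**
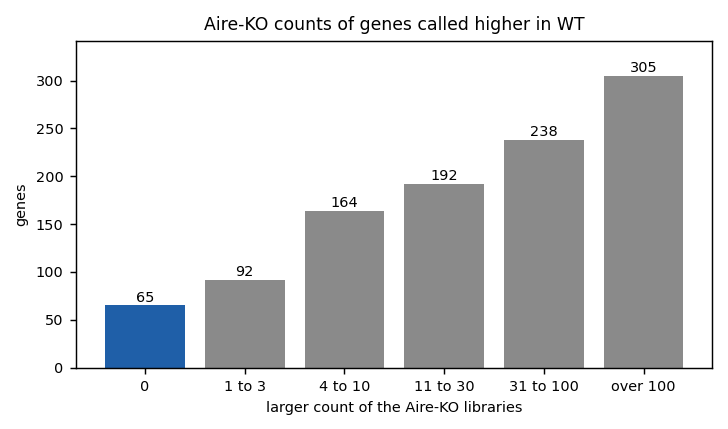
Number of genes called higher in WT, with at least 100 counts in both WT libraries, by the larger of their counts in the Aire-KO libraries. The 65 genes at 0 (blue) make up 6.16% of the 1056 genes, and the bars grow to 305 genes over 100 counts.

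The Aire-KO libraries did not set the zeros equally. Among genes with at least 100 WT counts, 27 were at 0 in the first Aire-KO library alone and 185 at 0 in the replicate alone, although the replicate was the deeper of these libraries. Without the first Aire-KO library the rule gives 252 genes, and without the replicate Aire-KO library 94. Without the replicate WT library it gives 129 genes, and without the first WT library 74. The 185 genes had a median of 4 counts in the first Aire-KO library and at most 55 (Gm9573), and 82 of them had 1 to 3.

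The members just inside the threshold, by the smaller WT count, were Mcpt9 (224 and 101), 1700029B22Rik and Ndp (107 and 102 each), the unnamed NM_001177652 (138 and 105) and H2-M9 (171 and 106). Just outside, at 0 in both Aire-KO libraries, were Ano5 (266 and 98), Tmem114 (118 and 97), Lcn4 (168 and 96), Slc38a5 (181 and 96) and B020004C17Rik (122 and 95). A few Aire-KO reads kept out genes with far more WT reads. Cytl1, a small secreted protein, had 3650 and 2769 WT counts with 3 and 0 in Aire-KO. Dcpp1, a salivary protein, had 1897 and 2274 WT counts with 1 and 0. Ppy, the pancreatic polypeptide, had 1529 and 1925 with 2 and 0, and Hba-x, the embryonic alpha-like globin, 1371 and 1860 with 2 and 0. Trh, the thyrotropin-releasing hormone, had 1791 and 1358 with 2 and 0.

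The tissues of origin were spread over the body. From what is known of each gene, 50 of the 66 could be given an organ or cell type and 16 could not. Brain and sense organs held 11, stomach and intestine 8, blood and immune cells 6, embryo and germ line 5, and epididymis and testis 4. Salivary gland, liver and kidney, and muscle, cartilage and fat held 3 each, tooth enamel, placenta and pancreas 2 each, and the mammary gland 1. This sorting was made with the members known and is not a test.

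Genes of the secretory epithelia included the silent gene with the highest WT CPM on average and in the replicate, Dcpp2, while Amtn led in the first experiment (11.3 against 8.58 CPM). This demilune and parotid cell protein of the salivary glands had 1191 counts in each WT library, or 14 and 23.8 RPKM. Bpifa2, the parotid secretory protein, had 342 and 377 counts, and Smr3a, a submandibular gland protein, 226 and 150. Wap, the whey acidic protein of milk, had 483 and 462 counts. Its companion in milk, Csn2 (β-casein), was not silent: it had 121084 and 53264 counts in WT and 219024 and 159579 in Aire-KO. Csn1s1, another casein gene, had 979 and 265 counts in WT and 26 and 21 in Aire-KO (adjusted p = 0.0278 by edgeR). Both were chosen for mention after their values were seen. On the milk and mammary list, 4 of 11 tested genes were called higher in WT and 0 lower.

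Amtn and Ambn, the enamel matrix proteins amelotin and ameloblastin of the developing tooth, had 1563 and 760 and 352 and 182 WT counts. Amtn was second in mean WT CPM, at 11 and 9.09 RPKM. Matn3, the matrilin of growth plate cartilage, had 416 and 171 counts. Ctsq, a cathepsin of the placenta, had 207 and 165 counts, and Ceacam11, a placental member of the carcinoembryonic antigen family, 334 and 187.

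In the digestive tract, Defa32 and Defa33 had 513 and 408 counts each, Defa20 437 and 364, Defa22 376 and 360 and Defa38 318 and 279. All 5 had a lower CPM in the first than in the replicate WT library. Lipf, the gastric lipase, had 547 and 244 counts. Retnlb, a goblet cell product, had 309 and 358 counts. The pancreatic genes were Ins1, which encodes one of the mouse insulins, with 171 and 153 counts, and Reg2 of the acinar cells, with 147 and 170. Ins2, the other insulin gene, had 1041 and 1373 WT counts with 3 and 0 in Aire-KO, and was chosen for mention after its values were seen.

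Of the male tract, Cst8, a cystatin of the epididymis, had 594 and 472 counts, Lcn8 550 and 463 and Lcn6 329 and 274, the latter both lipocalins of the epididymis. Hsd17b3, the testicular enzyme that makes testosterone, had 578 and 320. Kap, an androgen-regulated protein of the kidney proximal tubule, had 415 and 278. Mup4, a lipocalin of the nasal mucosa that binds pheromones, had 507 and 317. Each of these genes was above 2 CPM in both WT libraries.

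Transcription factors and other genes of the embryo were among the members with more WT counts. Foxn4, which acts in retinal progenitors, had 779 and 456 counts, Foxi2, a forkhead factor of the cranial ectoderm, 594 and 450, and Noto, the notochord homeobox factor, 437 and 323. Dppa1, first found in pluripotent cells, had 419 and 255. Hbb-bh1 had 681 and 908 counts, or 8.04 and 18.2 RPKM. The adult globin gene Hba-a1 had 2474 and 24236 counts in WT and 133 and 21157 in Aire-KO, and the part of red cells in the Hbb-bh1 counts was not tested.

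Genes of the nervous system and senses covered several kinds of cell. Opn4 encodes melanopsin of the light-sensing ganglion cells and had 496 and 262 counts. Nms, the neuropeptide neuromedin S, had 449 and 266, and Brs3, a bombesin-like receptor of the hypothalamus, 206 and 111. Opalin of oligodendrocytes had 239 and 179 counts and Otor of the inner ear 226 and 155. Slco1c1, the thyroid hormone transporter of the blood-brain barrier, had 370 and 151. Their WT levels lay between 0.77 CPM (Ndp, the secreted norrin) and 5.61 CPM (Foxn4) in the first experiment.

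Products of blood and immune cells need the levels of those cells beside them. Ctsg, a neutrophil protease, had 203 and 242 WT counts, Mcpt8, a basophil protease, 188 and 192, and Fcnb, a myeloid ficolin, 156 and 135. Il31, a cytokine of type 2 helper T cells, had 483 and 227. Other granulocyte genes were looked up after these values were seen, and they did not all go one way. Mpo had 7337 and 4785 counts in WT and 193 and 96 in Aire-KO (adjusted p = 0.0191 by edgeR), and Elane 14 and 48 in WT and 0 in both Aire-KO libraries (adjusted p = 0.0811 by edgeR). Prg2, a granule protein of eosinophils, had 8885 and 13974 counts in WT and 12756 and 39412 in Aire-KO (adjusted p = 0.586 by edgeR). Of mast cell and basophil genes, Fcer1a had 577 and 567 counts in WT and 15 and 29 in Aire-KO (adjusted p = 0.0193 by edgeR). Cma1 had 989 and 665 against 1 and 8 (adjusted p = 0.018 by edgeR), and Cpa3 94 and 45 against 4 and 0 (adjusted p = 0.102 by edgeR). Kit, a receptor that mast cells carry, went the other way, with 20324 and 7027 against 31859 and 27247 (adjusted p = 0.22 by edgeR). Lyz2, expressed by macrophages and neutrophils, had 398 and 712 CPM in WT and 392 and 452 CPM in Aire-KO. The part of such cells in these counts was not tested, and in bulk samples fewer cells of a type and less RNA per cell cannot be told apart.

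The silent genes were also counted on lists of tissue genes, which hold fewer of them than the sorting above. Of 524 listed genes with at least 100 WT counts, 26 were silent (4.96%), against 65 of 16920 genes (0.384%, BC048679 left out as above), and 40 of the 66 silent genes were on no list. Over the 729 listed genes tested, 265 were higher in WT and 3 lower, with a median log2 fold change of 3.02 against -0.03 over all genes tested. These lists were drawn up with results of these data known. By the number silent among those with at least 100 WT counts, the fullest were tooth enamel and bone matrix (2 of 8), lacrimal and salivary (3 of 13), epididymis (3 of 22), Paneth cell and intestine (4 of 31), milk and mammary (1 of 8) and red cells (1 of 9). Kidney and adipose and adrenal had 1 of 11 each, placenta 2 of 25, pancreas and inner ear, nose and tongue 2 of 29 each, and cartilage and skeleton 1 of 15. Embryonic transcription factors had 2 of 41, retina and lens 1 of 28, skeletal and heart muscle 1 of 38 and liver 1 of 40. No silent gene stood on the lists for stomach (13 genes with at least 100 WT counts), lung and airway (13), prostate and seminal vesicle (9), testis and germ cells (13), ovary and oocyte (7), skin and cornified envelope (67), brain and peripheral nerve (45) or pituitary and thyroid (12). On several of those lists many genes were still called higher, 8 of 13 tested for stomach and 23 of 70 for skin.

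A position in the mm9 annotation was found for 60 of the 66 genes, on 18 chromosomes. Chromosomes 2 and 5 held 6 each and chromosomes 1, 6, 7 and 8 held 5 each, and none was on chromosomes 15, 18 or Y. Of the 60, 16 had another silent gene within 500 kb (26.7%). Of all 16032 placed genes with at least 100 WT counts, 3.77% had a silent gene other than themselves within that distance, and of 941 other genes called higher with that WT count 9.67%. Within 100 kb the number was 13 of 60 (21.7%), against 1.09% and 4.78% in those groups.

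The 16 genes formed 6 runs. On chromosome 8 the α-defensin run covered 432 kb from Defa38 to Defa32 with 13 measured genes, of which 4 were silent and 6 others were called higher in WT. Defa29 there had 348 and 314 WT counts with 2 and 6 in Aire-KO, and Defa42 394 and 431 with 0 and 7. On chromosome 14, Mcpt9, Mcpt8 and Ctsg lay within 75.7 kb, and both protease genes between them kept a few Aire-KO reads. Mcpt2 had 1369 and 995 WT counts with 1 and 0 in Aire-KO, and Mcpt4 1585 and 1223 with 2 and 4. These serine proteases are products of mast cells and other granulocytes.

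On chromosome 5, Smr3a, Amtn and Ambn lay within 466 kb, and the gene Prol1 between them had 179 and 8 WT counts with 2 and 0 in Aire-KO and was not called. On chromosome 13, Ctsll3 and Ctsq, cathepsins of a cluster that is active in the placenta, lay within 242 kb. The genes between them split: Ctsj (361 and 247 WT counts, 2 and 0 in Aire-KO) and Tpbpa were higher in WT, while Ctla2a had 89 and 138 counts in WT and 30 and 324 in Aire-KO and was not called. On chromosome 2, Lcn8 and Lcn6 lay within 28.5 kb on both sides of Lcn5, which had 24 counts in each WT library and 0 in Aire-KO. On chromosome 1, Trpm8 and Spp2, a secreted phosphoprotein of liver and bone (355 and 312 counts), lay within 149 kb.

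**Figure D3:**
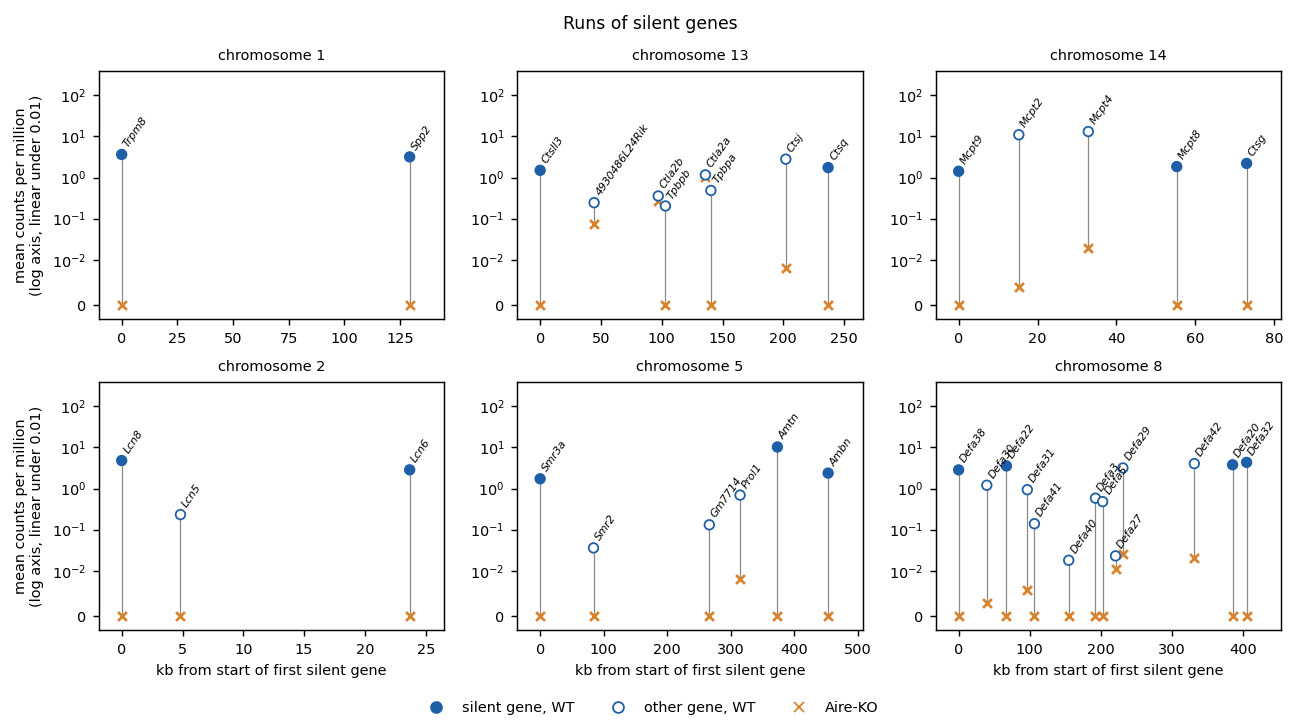
Mean CPM in WT (circles, filled for silent genes) and Aire-KO (crosses) of the measured genes in the 6 runs of silent genes, against distance in kb from the start of the first silent gene. The axis is logarithmic above 0.01 CPM and linear below. Filled circles lie over crosses at 0, and most open circles in the runs on chromosomes 8 and 14 lie over crosses near 0, while Ctla2a and Ctla2b on chromosome 13 nearly meet theirs.

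The genes next to silent genes were often called higher as well. Taking the nearest gene on each side that was neither silent nor overlapping a silent gene gave 110 genes, of which 103 were tested. Of these 34 were higher in WT (33%) and none lower by edgeR, with 4 lower under the replicate block and 2 by DESeq2. The background was 6.29% higher. Their median log2 fold change was 2.16, against -0.03 for all genes tested. With the replicate block 54 of the 103 were higher (52.4%), against 15.8% of all genes in that fit, and without the first Aire-KO library 53 of 104 (51%), against 15.0%. Among the 88 tested neighbours that share no 50-base window with a silent gene, 23 were higher (26.1%).

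The neighbours with the largest difference toward WT were Mcpt2, Hbb-y and Cst12. Hbb-y, an embryonic beta-like globin 8.58 kb from Hbb-bh1, had 1152 and 1410 WT counts with 2 and 0 in Aire-KO (log2 fold change 10.4, SE 1.15, adjusted p = 0.018 by edgeR). Cst12, a cystatin 5.24 kb from Cst8, had 82 and 135 WT counts and 0 in both Aire-KO libraries (adjusted p = 0.0364 by edgeR). The neighbours furthest the other way were not called. Sult1c2 had 3415 and 3060 counts in WT and 6644 and 11979 in Aire-KO (adjusted p = 0.118 by edgeR), and Etv6 34951 and 17108 against 53044 and 78752 (adjusted p = 0.0971 by edgeR).

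**Figure D4:**
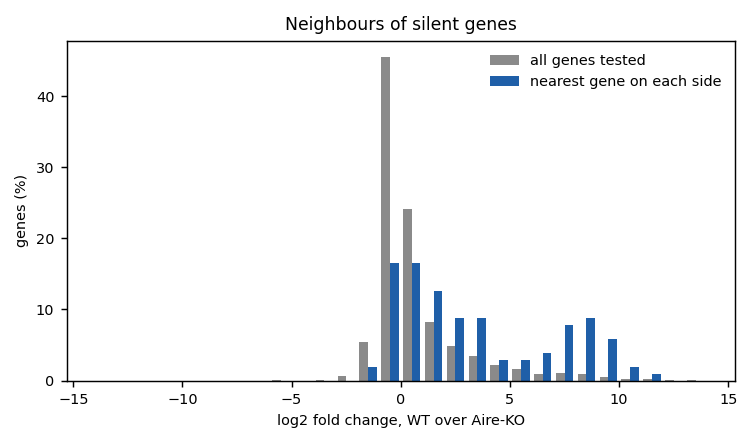
Share of genes in each 1-unit bin of log2 fold change, WT over Aire-KO, for the 103 tested neighbours of silent genes (blue) and all 20557 genes tested (grey). Both peak near 0, and the neighbours have further genes around 7 to 10, where few of all genes lie.

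Reads of a silent gene could come from a copy. Only exact matches were counted, so the shares below are lower limits where the alignment allowed mismatches. The share of its exonic 50-base windows that occur elsewhere in the mm9 chromosomes was 0 for 39 of the 60 placed genes (65.0%), at least 10% for 11 (18.3%) and at least 50% for 5 (8.33%). The same shares were 65.0%, 15.7% and 4.99% for other genes called higher with at least 100 WT counts, and 56.3%, 11.1% and 2.94% for all genes with at least 100 WT counts. The α-defensins stood at the top, at 84.7% for Defa20, 76.9% for Defa22, 71.5% for Defa32 and 64.4% for Defa38. Defa20 shared 277 of its 327 windows with Defa32, and Defa22 shared 238 of 321 with Defa21, which had 561 and 654 WT counts and 1 and 0 in Aire-KO. Defa38 shared 131 of 253 with Defa29, which kept the Aire-KO counts given above.

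**Figure D5:**
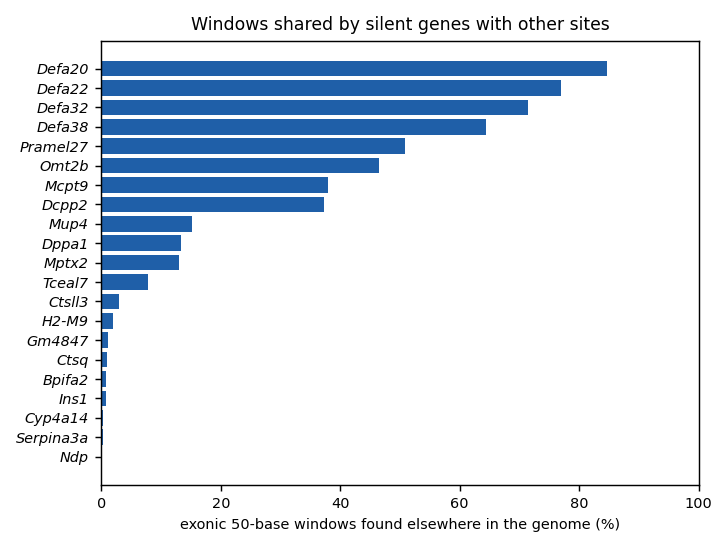
Percent of exonic 50-base windows found without a mismatch at another place in the mm9 chromosomes, for the 21 of 60 placed silent genes in which any was found. The 4 α-defensins lead, from 84.7% (Defa20) to 64.4% (Defa38), and 10 genes lie under 10%.

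Pramel27, a member of a germ-line family, shared 829 of 1688 windows with Pramel22 (149 and 46 WT counts, 0 in Aire-KO). Omt2b, an oocyte transcript with 337 and 295 WT counts, shared 304 of 654 with Omt2a (448 and 453 WT counts, 4 and 0 in Aire-KO). Mcpt9 shared 656 of 1755 with Cma2 (524 and 284 WT counts, 0 and 4 in Aire-KO). Dcpp2 shared 128 of 435 with Dcpp3 (1414 and 1395 WT counts, 5 and 4 in Aire-KO), and 29 of its exonic bases overlap the model of Dcpp1. In all, 37.2% of its windows occur at another place. Copies inside the span of Dcpp2, which overlaps Dcpp1, were not traced to a gene, so windows shared with Dcpp1 could be missed. Dcpp1 was its closest protein match (89.5% identical) and had 1897 and 2274 WT counts, with 1 and 0 in Aire-KO. Each of these partners had more counts in both WT libraries than in either Aire-KO library, and none was above 5 counts in an Aire-KO library. Since the handling of reads that match several places was not stated for the files, the WT counts of these genes are uncertain.

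By translated protein, 6 of the silent genes had a partner of at least 90% identity: Defa20 and Defa32 (100%), Defa22 with Defa21 (97.8%), Defa38 with Defa29 (97.4%), Pramel27 with Pramel22 (97.2%) and Mcpt9 with Cma2 (95.1%). Ins1 was 88.2% identical to Ins2 but shared 0.762% of its windows with any other place. Protein likeness and shared windows did not go together for Ins1.

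Some silent genes could not be separated by counts at all. Defa32 and Defa33 had the same counts in all 4 libraries. 1700029B22Rik and Ndp also had equal counts, 107 and 102, but lie on different chromosomes in RefSeq. Counting such pairs once leaves 64 genes. Dppa1, Slco1c1 and Plin1, the lipid droplet protein of adipocytes, had a pair of silent RefSeq IDs each, equal in counts for Slco1c1 (370 and 151) and Plin1 (123 and 121). Opn4 and BC048679 had another ID with Aire-KO reads. The other Opn4 ID had 317 and 109 WT counts and 5 counts in the replicate Aire-KO library, all in its last exon part, and the other BC048679 ID had 253 and 357 WT counts and 1 in the first Aire-KO library.

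The libraries were not counted by strand, so a read in a stretch that 2 counted models share could count for both genes. The overlaps below are those of the GENCODE M1 models and need not exist in the RefSeq models that were counted. Tceal7 (332 and 252 WT counts) shares 223 exonic bases with Bex1 on the opposite strand, and Bex1 had 71 and 151 counts in Aire-KO. Trpm8 shares 388 bases with 4930453O03Rik and Myl2 60 bases with Ccdc63, which had 10 and 42 counts in Aire-KO. None of those Aire-KO reads was counted for the silent partner.

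Where it could be measured, the reads of nearly all silent genes were not confined to the last exon. The density of reads per base in the coding exons before the last, divided by that in the last coding exon with the proximal 3′UTR, had a median of 0.801 over 37 silent genes in the first WT library and 0.890 over 34 in the replicate. It was 0.657 and 0.741 for other genes called higher, and 0.607 and 0.710 for genes with at least 100 WT counts. No gene of the 37 and 1 of the 34 was without reads before the last exon.

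The d3UTR, the part of a 3′UTR beyond a proximal polyadenylation site, was annotated for 6 silent genes. The d3UTR ratio is the read density there over the density in the last exon part before it. In the first WT library it was 0.0158 for Matn3, 0.0229 for Slco1c1, 0.0288 for Ins1, 0.109 for Serpina3a, 0.128 for Tmem52b and 0.532 for BC030870, with 2 to 30 reads in the d3UTR. The median was 0.0687, against 0.325 for 179 other genes called higher and 0.433 for 6277 other genes. In the replicate 5 genes had at least 20 upstream reads, and 4 of them had no d3UTR read, as had 39 of 176 other genes called higher and 690 of 6110 other genes, whose medians were 0.187 and 0.352. BC030870, the fifth, had 0.267. Slco1c1 had 0.351 in the replicate, from 6 d3UTR reads and 9 upstream reads, and so fell under the minimum.

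Of the members, 16 had no assigned tissue, and for some of them the files give only an ID. NM_007852 had 435 and 262 WT counts over 282 bp, or 11.1 and 11.4 RPKM, and NM_001034103 had 348 and 166. Of the others, Calhm4 is known from the placenta in human and had 1.68 and 0.592 RPKM. Gm4847 had 424 and 161 counts, Serpina3a 366 and 216, Tceal7 332 and 252, and Sult1c1 331 and 107. The remaining 9 had between 107 and 220 counts in the first WT library and between 102 and 274 in the replicate.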

How the data were processed

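RNA from sorted mTEChi was sequenced, and the authors deposited raw read counts per RefSeq ID, and counts per part of each ID. According to the methods, the libraries were sequenced paired-end, and reads were trimmed and concatenated into 50 bp single-end data. Both ends of a fragment could therefore be counted. Reads were aligned to mm9 with Bowtie 1.0.0 after CASAVA, and counted with bedtools when wholly inside exons. How reads with several matches were treated was not given in the sources used here, and no column of values was left unused (0). IDs were named from RefSeq (29352), from the gene lists of the study (10), or kept as IDs (1432). CPM and RPKM were computed with the total over 1 ID per gene and the summed length of the parts.

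The members and all lists were chosen with earlier results of these data known. Genes named in the text were those of highest WT level, on a tissue list, in a family or run, with identical counts, near the threshold, with the largest ratios between WT libraries, and the 3 most different neighbours each way, of which 1 is not reported here. Others are said to be chosen afterwards.

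WT and Aire-KO were compared with edgeR 4.0.16 (R 4.3.3, TMM, filterByExpr, quasi-likelihood test, Benjamini-Hochberg adjusted p under 0.05) over 4 libraries. DESeq2 1.42.0, other scalings, left-out libraries and the experiment as a replicate block were the alternatives. The titles and methods pair the libraries by experiment, and the log2 CPM of both libraries of an experiment deviated together from the genotype means (r = 0.687 over 20557 genes). On simulated counts with 200 changed genes, the test called 100 of 100 at 8-fold and 100 of 100 at 64-fold, with 15 false calls. The simulated counts had the same spread for every gene and no deviation shared within an experiment. They therefore do not measure how many changes the test misses in the real libraries. There Enam, chosen for mention after its values were seen, was not called at a log2 fold change of 5.38 (adjusted p = 0.0533 by edgeR).

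Positions and exons came from GENCODE M1 (mm9). Every exonic 50-base window was searched for exact matches on both strands of the assembled chromosomes. Proteins were translated from GENCODE coding sequences, in place of RefSeq proteins, and compared with BLAST 2.17.0 (at least 80% of the length aligned). Promoters came from RefSeq (GRCm38.p6).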

Additional observations from a re-analysis of the deposited data

How the results depend on the processing

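The number of silent genes depends on where the line is drawn. It was 66, and became 128 with a minimum of 50 WT counts, 33 with 200, 3 with 500, and 158 with up to 3 counts allowed in each Aire-KO library, while the other settings gave 62 to 95. Leaving out each library in turn gave 74 to 252. RefSeq IDs higher in WT numbered 1495, and 4428 with the replicate block, 3528 by DESeq2 and 2470 with library sizes alone, a scaling under which the median ID shifts in log2 fold change from -0.03 to 0.26. Without 1 library they ranged from 1524 to 3664. IDs lower in WT numbered 69, and 2777 with the block, 565 by DESeq2 and 143 without a filter, and ranged from 66 to 521 without 1 library. Neighbours higher in WT numbered 34 of 103, and 69 of 290 for the nearest 3 on each side, 54 with the replicate block and 52 by DESeq2, with 24 to 53 when 1 library was left out. Lower neighbours numbered 0, and 4 with the block and 2 by DESeq2, and 0 to 0 without 1 library. Genes with a near-identical partner were 6, and 11 at 80% identity. Silent genes on lists were 26, and 52 with up to 3 Aire-KO counts. The median d3UTR ratio in the first WT library was 0.0687, and 0.0288 for d3UTRs of at least 100 bp. The number with another silent gene nearby was 13 to 16 in every setting. The cause of these shifts was not tested. With 2 libraries a group, and 101 counts the smallest WT count of a member, the zeros mark an upper limit on the level and not absence.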
